A study of Homo sapiens with 4 samples.

Results

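The imprinted genes described here are 10 genes of human imprinted domains: H19, IGF2, MEG3, KCNQ1OT1, NNAT, MEST, PEG3, PEG10, CDKN1C and PHLDA2. They were chosen by name, with earlier results of these data known. All 10 were found among the 40877 gene names of the deposited gene table that stand for a single gene. Their counts were taken from 2 human cancer lines profiled by single-cell RNA sequencing with the 5′ chemistry of 10x Genomics, which captures polyadenylated RNA and reads it from its 5′ end. H1299 is a non-small cell lung cancer line and HCT116 a colorectal cancer line, both used at passage 5 to 10. Each line was given the solvent DMSO, here called the control, or DAC+SB, here called treated: 500 nM DAC for 72 h and 500 nM SB939 for 18 h in all, in medium renewed every 24 h. DAC is decitabine, which inhibits DNA methyltransferases (DNMT), and SB939 inhibits histone deacetylases (HDAC). They were given together, so no library separates the action of either compound. With 1 library for each line and treatment, 4 in all, there were no replicates, so differences are given without tests or p-values. Sets of 4 values are given for control H1299, treated H1299, control HCT116 and treated HCT116, and pairs of ratios for H1299 first.

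An imprinted gene is expressed mainly from the copy inherited from a single parent. The other copy is kept silent by DNA methylation laid down in the germline, by chromatin marks, or by a long non-coding RNA that acts on its neighbours. MEG3, H19, CDKN1C and PHLDA2 are maternally expressed, and IGF2, KCNQ1OT1, NNAT, MEST, PEG3 and PEG10 are paternally expressed in many tissues. Many of these genes act in fetal and placental growth and are silenced or released in tumours. The deposited counts do not separate the parental copies, so nothing below says which copy was transcribed.

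The 4 libraries held 3578, 3726, 3658 and 4327 cells, with library totals between 38927267 and 64524196 gene and transposable element (TE) counts. Median counts per cell were 17369.5, 15784.5, 16257.5 and 8449, so cells of the treated HCT116 library were the shallowest. The median mitochondrial share of a cell was 8.33%, 8.87%, 15.8% and 18.6%. Of 15158 barcode sequences, 131 occurred in more than 1 library. The 5 markers chosen for H1299 summed to 2332, 1217, 65.3 and 293 CPM, that is counts per 1000000 gene plus TE counts. VIM, an intermediate filament gene, held 147273 of the 150456 counts of these markers in control H1299. All 5 had higher levels in H1299 than in HCT116 under each treatment. The counting intervals of the lines overlapped for SPARC among controls (16 and 7 counts) and for ZEB1 among treated libraries (14.4 and 14.1 CPM). Of 7 markers chosen for HCT116, 6 were higher in control HCT116 than in control H1299 and 5 were so among treated libraries. EPCAM, an epithelial adhesion molecule and the marker with most counts in HCT116, had 1, 279, 5054 and 1759 counts. Levels below are CPM with exact Poisson 95% intervals, and ratios are DAC+SB over DMSO with exact conditional 95% intervals. All intervals cover counting error only.

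The RefSeq promoter table used (GRCh38.p14) held 3 of the 10 genes. From these, 4 promoters are shown, because MEG3 was among the genes near 0 with DMSO and far above it with DAC+SB, MEST had opposite ratios in the lines, and H19 stayed near 0. The table held 3 overlapping MEG3 windows, 5 MEST windows and 1 H19 window, and the 2 MEST windows shown hold the most CG dinucleotides. Each run is the 250 bases before an annotated start, 5′ to 3′ on the gene's strand, with every CG dinucleotide, the site that DNA methyltransferases modify, in capitals.
MEG3, chr14:100825858-100826107, plus strand: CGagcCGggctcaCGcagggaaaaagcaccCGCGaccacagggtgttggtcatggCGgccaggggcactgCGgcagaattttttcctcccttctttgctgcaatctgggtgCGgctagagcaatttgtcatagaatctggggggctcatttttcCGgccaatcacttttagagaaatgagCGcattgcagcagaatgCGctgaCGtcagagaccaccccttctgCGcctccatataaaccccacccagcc
MEST upstream start, chr7:130486097-130486346, plus strand: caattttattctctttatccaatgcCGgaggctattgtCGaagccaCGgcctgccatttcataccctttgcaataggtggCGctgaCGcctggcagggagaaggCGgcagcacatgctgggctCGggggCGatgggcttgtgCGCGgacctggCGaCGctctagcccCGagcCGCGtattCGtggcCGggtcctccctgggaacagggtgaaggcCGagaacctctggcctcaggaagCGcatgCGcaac
MEST downstream start, chr7:130491835-130492084, plus strand: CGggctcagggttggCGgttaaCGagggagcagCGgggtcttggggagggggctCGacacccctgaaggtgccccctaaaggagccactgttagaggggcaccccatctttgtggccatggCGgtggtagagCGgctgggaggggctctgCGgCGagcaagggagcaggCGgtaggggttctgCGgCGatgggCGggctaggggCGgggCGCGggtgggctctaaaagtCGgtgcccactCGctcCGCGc
H19, chr11:2001267-2001516, minus strand: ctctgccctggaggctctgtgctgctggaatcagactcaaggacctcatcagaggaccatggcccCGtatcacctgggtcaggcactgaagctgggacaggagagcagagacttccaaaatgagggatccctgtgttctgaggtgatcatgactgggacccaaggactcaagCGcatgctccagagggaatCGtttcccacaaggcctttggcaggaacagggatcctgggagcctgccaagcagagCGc
The MEG3 window held 13 CG dinucleotides and 56.4% G and C, and 46.6% of the 35116 promoter windows in the table held at least 13. The MEST windows shown held 20, a number reached by 32.4% of windows, and the 3 others of MEST held 9, 11 and 16. H19 held 4, a number reached by 70.7%, and the median window held 11. The letters TATAAA, on either strand, occurred once in the MEG3 window and in no H19 or MEST window, against 10.7% of all windows. The letters GCCATNTT, a core bound by YY1, were found on neither strand of the windows of these 3 genes, against 3.86% of all windows. The deposited features carry no coordinates, so the counts below could not be placed on these starts.

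Treatment with DAC+SB went with higher levels of most of the 10 genes. In H1299, 5 of the 10 (MEG3, NNAT, MEST, PEG10 and CDKN1C) had at least 100 counts in the higher library and a ratio of at least 4, a rule met by 11% of the 14610 genes with that many counts. In HCT116, 5 of the 10 (MEG3, NNAT, PEG3, PEG10 and CDKN1C) met it, against 9.63% of 13539 genes. None of the 10 was at least 4-fold lower in either line, against 0.349% of genes in H1299 and 3.69% in HCT116. H19 was below 100 counts in every library. Of the 9 others, MEG3, NNAT, MEST and CDKN1C in H1299 and MEG3, NNAT and PEG3 in HCT116 reached 100 counts only with DAC+SB, so they could enter that count only as higher. Over the 9 genes the median log2 ratio was 2.27 in H1299 and 2.50 in HCT116, against -0.07 and -0.23 over all genes with at least 100 counts. For the reason just given these medians describe the 9 genes and support no test.

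**Figure D1:**
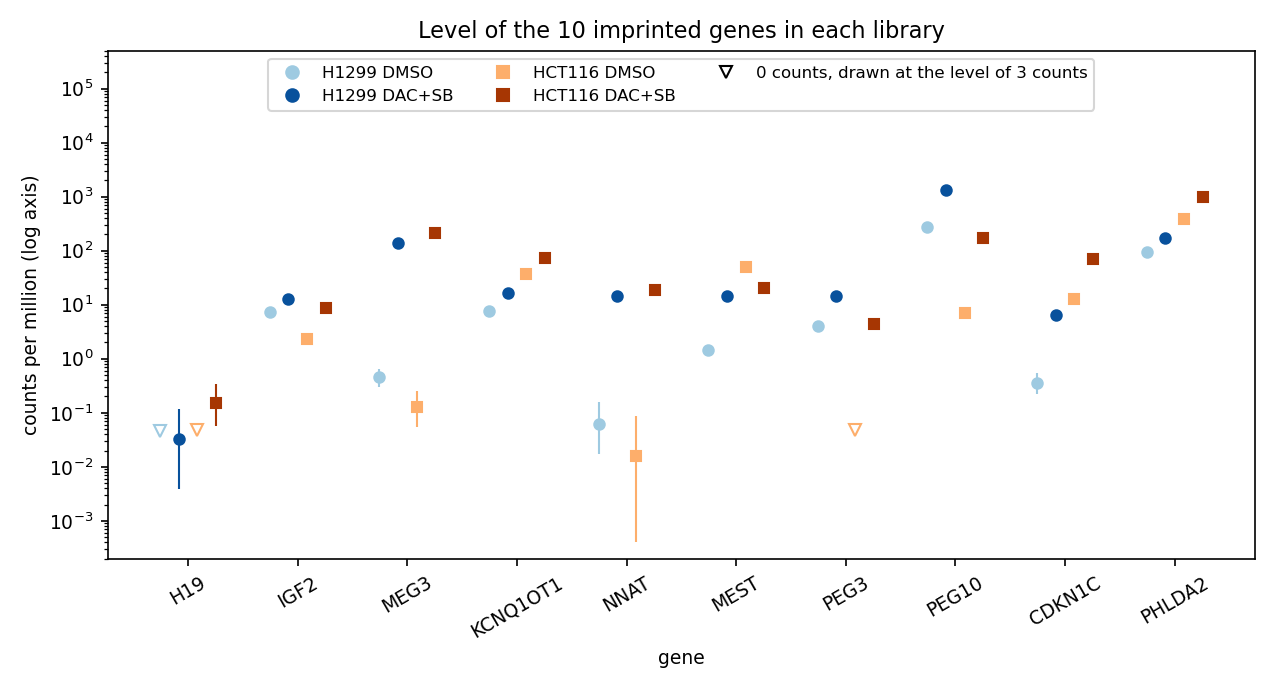
Level of each imprinted gene in each library, in CPM on a log axis, with exact Poisson 95% intervals. Circles are H1299, squares HCT116, pale DMSO and dark DAC+SB, and open triangles mark 0 counts, drawn at the level of 3 counts. MEG3 and NNAT lie below 1 CPM in both DMSO libraries and above 10 CPM in both DAC+SB libraries.

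MEG3 and NNAT were near 0 with DMSO and were well above it in both treated lines. MEG3, a long non-coding RNA of the imprinted DLK1 to DIO3 domain (chromosome 14, 100779410 to 100861031, plus strand, GENCODE 29 on GRCh38), had 29 counts in control H1299, 8560 in treated H1299, 8 in control HCT116 and 8302 in treated HCT116. These are 0.449 (0.301 to 0.645), 137 (134 to 140), 0.128 (0.0551 to 0.252) and 213 (209 to 218) CPM. Both treated libraries were thus far above both DMSO libraries, with no overlap of intervals. The MEG3 ratio was 305 (212 to 456) in H1299 and 1670 (847 to 3869) in HCT116, or 8.25 and 10.71 on the log2 scale. With absent counts taken as 3, 78 of 14610 genes had a higher ratio in H1299 and 11 of 13539 in HCT116. These are minimum numbers, since genes without DMSO counts were ranked by their lower bounds.

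NNAT encodes neuronatin, a small membrane protein of the endoplasmic reticulum, and its gene (chromosome 20, 37521206 to 37523693, plus strand) lies within the span of BLCAP on the other strand. It had 4, 916, 1 and 733 counts in control H1299, treated H1299, control HCT116 and treated HCT116. In CPM these were 0.0620 (0.0169 to 0.159), 14.7 (13.7 to 15.7), 0.0160 (0.000404 to 0.0889) and 18.8 (17.5 to 20.2). The DMSO intervals of the lines overlapped, and both treated libraries lay above them. The log2 ratio of NNAT was 7.89 (6.53 to 9.77) in H1299 and 10.20 (7.72 to 15.51) in HCT116, wide because of the 4 and 1 counts with DMSO. BLCAP, named after its values were seen because it overlaps NNAT, was at 0.03 in H1299 and 0.74 in HCT116.

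Part of these counts rests on numbered features. The table lists some genes as several features, and a feature with a number after the gene name was listed only from 10 counts in a library. A numbered feature that is missing from a library can therefore have lost counts, fewer than 10 if that limit alone removed it. Leaving it out of the library that lists it, as below, can remove far more. Those values are outer cases and not corrections. The numbered feature of MEG3 held 1993 counts in treated H1299 and 3240 in treated HCT116 and was not listed in either control. That of NNAT held 581 and 584 counts with DAC+SB and was likewise not listed with DMSO. When a numbered feature was kept only if both libraries of its line listed it, the log2 ratios were 7.87 and 9.99 for MEG3 and 6.44 and 7.91 for NNAT, H1299 first. Without the 5% of cells with most counts, the HCT116 ratio of MEG3 was 11.57 on the log2 scale.

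PEG3 and PEG10 differed between the lines before treatment. PEG10, a paternally expressed gene derived from a retrotransposon whose protein resembles retroviral Gag and Pol (chromosome 7, 94656325 to 94669695, plus strand), had 17527 counts in control H1299, 81537 in treated H1299, 434 in control HCT116 and 6717 in treated HCT116. These are 272 (268 to 276), 1306 (1297 to 1315), 6.93 (6.29 to 7.61) and 173 (168 to 177) CPM. Treated H1299 was highest, and treated HCT116 remained below control H1299. The PEG10 ratio was 4.81 (4.73 to 4.89) in H1299 and 24.9 (22.6 to 27.5) in HCT116. SGCE, named after its values were seen because it overlaps PEG10 on the other strand, had log2 ratios of -0.48 (-0.56 to -0.39) and -0.90 (-1.12 to -0.69), H1299 first. The numbered PEG10 feature held 9091, 50281, 244 and 4152 counts and was thus listed in all 4 libraries.

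PEG3, which encodes a zinc finger protein (chromosome 19, 56810077 to 56840728, minus strand), had 261 counts in control H1299, 909 in treated H1299, 0 in control HCT116 and 171 in treated HCT116. The levels were 4.04 (3.57 to 4.57), 14.6, 0 and 4.39 (3.76 to 5.10) CPM, and 3 counts would be 0.0479 CPM in control HCT116. Treated HCT116 thus reached about the level of control H1299, with overlapping intervals. PEG3 was 3.60-fold (3.13 to 4.15) higher in treated H1299, below the 4-fold rule, and at least 91.7-fold higher in treated HCT116, where the bound takes the absent counts as 3. A joined name, PEG3_ZIM2, holds counts listed apart from those of PEG3 and of ZIM2, the gene whose span contains it on the same strand. That name had 134, 532, 0 and 109 counts in the 4 libraries. With it added, the H1299 ratio of PEG3 was 1.91 and the HCT116 bound 7.23 on the log2 scale.

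MEST was the only one of the 10 whose ratios went in opposite directions in the lines. MEST, an imprinted gene of the alpha/beta hydrolase family (chromosome 7, 130486171 to 130506465, plus strand), had 92 counts in control H1299, 901 in treated H1299, 3115 in control HCT116 and 783 in treated HCT116. In CPM these were 1.43 (1.15 to 1.75), 14.4 (13.5 to 15.4), 49.7 (48.0 to 51.5) and 20.1 (18.7 to 21.6). Control HCT116 was highest and control H1299 lowest, and the treated libraries of the lines lay between them. The MEST ratio was 10.1 (8.16 to 12.7) in H1299 and 0.404 (0.374 to 0.438) in HCT116, where 20% of genes were likewise at least 2-fold lower. The H1299 minus HCT116 difference in log2 ratio was 4.65 (4.32 to 4.97). The numbered MEST feature held 44, 235, 1566 and 432 counts, so it was listed in all 4 libraries and was higher in treated H1299 and lower in treated HCT116 like the whole. MEST overlaps COPG2 and MESTIT1 on the other strand, and NNAT, PEG10, KCNQ1OT1, IGF2 (with IGF2-AS), MEG3 and H19 also overlap annotated entries there. No source used here says whether counting used the strand, and without it such partners cannot be told apart. Of 859 joined names that pair genes placed by GENCODE, 97.6% paired genes of the same strand.

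**Figure D2:**
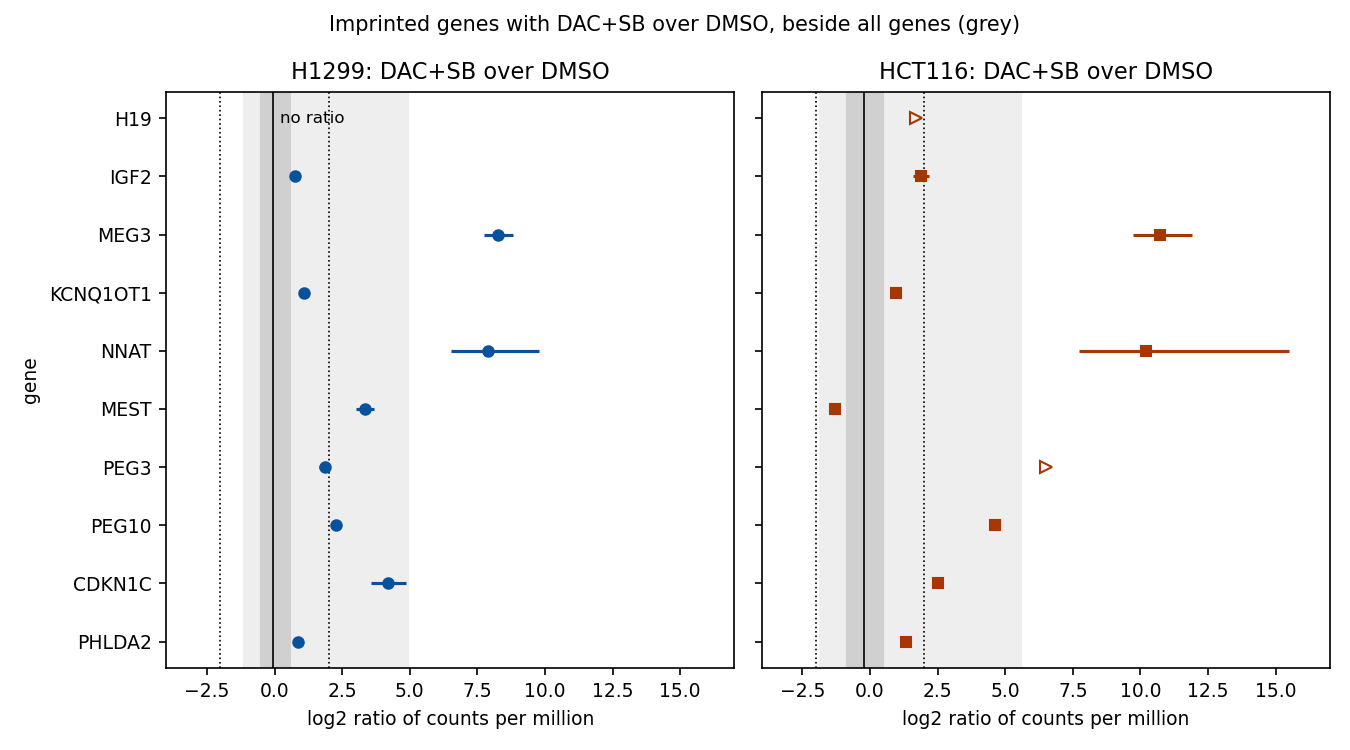
Log2 ratio of each imprinted gene, DAC+SB over DMSO, in H1299 (left) and HCT116 (right), with exact 95% counting intervals and open triangles for lower bounds. The dark and pale grey bands span the 25th to 75th and 5th to 95th percentiles of all genes with at least 100 counts, the solid line is their median and dotted lines mark 4-fold. MEG3 and NNAT lie beyond the pale band in both lines, and MEST is below 0 in HCT116.

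Near the tip of the short arm of chromosome 11 lie 5 of the 10 genes, in 2 neighbouring imprinted domains, and their ratios were unequal. H19, a non-coding RNA that shares an imprinting control region with IGF2 (chromosome 11, 1995176 to 2001470, minus strand), had 0, 2, 0 and 6 counts. In control H1299, 3 counts would be 0.0465 CPM, and in control HCT116 0.0479 CPM. The exact intervals for 0 counts reach 0.0572 and 0.0589 CPM there. No H1299 ratio was computed, and the HCT116 ratio, at least 3.22, rests on 6 counts in 6 cells. H19 was thus not detectable with DMSO at this depth and was barely detected with DAC+SB.

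IGF2, a fetal growth factor (chromosome 11, minus strand, where GENCODE has 2 entries of this symbol, at 2129112 to 2149603 and 2129112 to 2158658), had 476, 784, 147 and 336 counts under its own name. The levels were 7.38 (6.73 to 8.07), 12.6 (11.7 to 13.5), 2.35 (1.98 to 2.76) and 8.63 (7.73 to 9.61) CPM. Under its own name alone, IGF2 in treated HCT116 had an interval that overlapped that of control H1299. The ratios were 1.70 (1.52 to 1.91) in H1299 and 3.68 (3.02 to 4.50) in HCT116. Most IGF2 counts lay outside its own name, since joined names that contain IGF2 held 80.6%, 76.0%, 52.4% and 56.4% of the sum in the 4 libraries. A name that joins IGF2 with 1 clone-named transcript had 1781, 1869, 151 and 379 counts, and a name that joins it with 2 had 197, 614, 11 and 56. With joined names added the levels were 38.0, 52.3, 4.93 and 19.8 CPM, so treated HCT116 then lay below control H1299, with no overlap of intervals. The log2 ratio was then 0.46 in place of 0.77 in H1299 and 2.01 in place of 1.88 in HCT116. A separate alternative kept to the own name and left out the numbered feature that only treated HCT116 listed (159 counts). The HCT116 log2 ratio was then 0.95, beside 0.77 in H1299. In that alternative alone the lines differed within counting error.

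KCNQ1OT1, a non-coding RNA that silences neighbouring genes on the paternal copy (chromosome 11, 2608328 to 2699994, minus strand, within the span of KCNQ1 on the other strand), had 503, 1033, 2338 and 2842 counts. Its levels were 7.80 (7.13 to 8.51), 16.5 (15.6 to 17.6), 37.3 (35.8 to 38.9) and 73.0 (70.3 to 75.7) CPM. HCT116 was above H1299 under each treatment, and DAC+SB above DMSO in each line. Per HCT116 cell, the mean was 0.639 counts with DMSO and 0.657 with DAC+SB, while median total counts per cell were 16257.5 and 8449. The ratios were 2.12 (1.91 to 2.37) and 1.96 (1.85 to 2.07), and their log2 difference between the lines, 0.12 (-0.05 to 0.29), was within counting error. A numbered feature of 473 counts was listed in treated HCT116 alone, and without it the HCT116 log2 ratio was 0.71 in place of 0.97. The log2 difference between the lines was then 0.38 (0.21 to 0.56), beyond counting error. If the 10-count limit alone kept the feature from the other libraries, each lost fewer than 10 counts there. Leaving out all 473 would then be an outer case.

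CDKN1C, which encodes the cyclin-dependent kinase inhibitor p57 and is one of the genes that KCNQ1OT1 is known to silence (chromosome 11, 2883213 to 2885773, minus strand), had 23, 405, 784 and 2754 counts. Its levels were 0.356 (0.226 to 0.535), 6.49 (5.87 to 7.15), 12.5 (11.7 to 13.4) and 70.7 (68.1 to 73.4) CPM. Treated H1299 stayed below control HCT116. The ratio was 18.2 in H1299, or 4.19 (3.58 to 4.86) on the log2 scale, and 5.65 in HCT116, or 2.50 (2.38 to 2.62), so that KCNQ1OT1 and CDKN1C were both higher with DAC+SB in both lines. The numbered CDKN1C feature held 0, 130, 322 and 1374 counts. Without it in H1299, where it was listed only with DAC+SB, the log2 ratio was 3.63 in place of 4.19.

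PHLDA2, which encodes a pleckstrin homology protein that restrains placental growth (chromosome 11, 2928273 to 2929455, minus strand), had 5998, 10706, 24540 and 38816 counts. Its levels were 93.0 (90.6 to 95.3), 171 (168 to 175), 392 (387 to 397) and 997 (987 to 1007) CPM, again higher in HCT116 and with DAC+SB. The ratios were 1.84 (1.79 to 1.90) and 2.55 (2.50 to 2.59), H1299 first. Its log2 ratio in H1299, 0.88, was the lowest there after that of IGF2, 0.77, and its numbered feature, with 4503, 8793, 21147 and 35217 counts, was listed in every library.

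The 10 listed neighbours of these 5 that are not on the list of imprinted genes were mixed. Of the 10, 7 had at least 100 counts in a library of each line, and none of the 7 met the 4-fold rule in either line, against the 11% and 9.63% of all genes that met it as higher. Their median log2 ratio was -0.05 in H1299 and -0.21 in HCT116. NAP1L4, a histone chaperone gene, was at -0.20 and -0.39, CD81, a tetraspanin gene, at 0.17 and -0.21, and TSSC4 at -0.68 and -0.31. The 3 others, LSP1, TSPAN32 and ASCL2, were below 100 counts and are named after their values were seen. ASCL2, a transcription factor gene, had 0, 32, 0 and 92 counts, TSPAN32 had 0, 8, 0 and 11, and LSP1 had 18, 46, 53 and 60. MRPL23, among the 7 and likewise named after its values were seen, had 104, 97, 166 and 37 counts.

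The order of the lines was compared under each treatment. Among controls, 7 of the 10 genes had at least 100 counts in the higher library. Of these 7, 2 were at least 4-fold higher in H1299, against 9.92% of 13796 genes with that many counts. In HCT116, 4 of the 7 were so, against 8.11%. PEG10 (log2 H1299 over HCT116 of 5.29) and PEG3 (at least 6.40) were higher in H1299, while MEST (-5.12), CDKN1C (-5.13), KCNQ1OT1 (-2.26) and PHLDA2 (-2.08) were higher in HCT116. Among treated libraries, 9 of the 10 genes had that many counts. Of these 9, 1 was at least 4-fold higher in H1299, against 8.97% of 14875 genes, and this was PEG10 (2.92). Likewise 3 were higher in HCT116, against 4.65%, and these were CDKN1C (-3.45), PHLDA2 (-2.54) and KCNQ1OT1 (-2.14). Without the numbered feature of KCNQ1OT1 that only treated HCT116 listed, this value was -1.88, under 4-fold, and 3 of the 10 genes were that far apart in place of 4. With joined names added, IGF2 was also at least 4-fold higher in control H1299 than in control HCT116, at 7.71 (6.85 to 8.71) in place of 3.14 (2.61 to 3.81), which makes 7 of the 10 genes in place of 6. Among treated libraries MEST was at -0.48, MEG3 at -0.64 and NNAT at -0.36. The H1299 minus HCT116 difference in log2 ratio was -2.37 (-2.51 to -2.23) for PEG10, 1.69 (1.07 to 2.30) for CDKN1C, -2.45 (-3.58 to -1.32) for MEG3, -1.11 (-1.44 to -0.79) for IGF2 under its own name and -0.46 (-0.52 to -0.41) for PHLDA2. The MEG3 value rests on 29 and 8 counts in the controls, which are not read as clear expression. For NNAT the difference was -2.32 (-5.48 to 0.85), within counting error. With numbered features kept only where both libraries of a line listed them, the difference for IGF2 was -0.19 (-0.54 to 0.17), within counting error, and that for CDKN1C was 1.13 (0.50 to 1.75). These difference intervals treat the log of each count as normally distributed.

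Levels were then followed cell by cell. Because cells of the libraries differ in depth, each cell was thinned by a random draw to 3300 counts, which left out 402 treated HCT116 cells and no others. At this depth MEG3 had a count in 0.196% (0.0787 to 0.403) of control and 30.7% (29.3 to 32.2) of treated H1299 cells, and in 0.0547% (0.00662 to 0.197) and 40.6% (39.1 to 42.2) of HCT116 cells. Unthinned shares were 0.503%, 62.1%, 0.164% and 60.0%. PEG10 had a count in 52.9%, 84.9%, 2.32% and 32.1% of thinned cells and in 93.4%, 98.7%, 8.83% and 51.4% of unthinned cells. PHLDA2 went from 24.0% to 35.6% in H1299 and from 64.7% to 87.1% in HCT116, or 63.9%, 74.0%, 94.9% and 94.9% without thinning. The HCT116 shares of PHLDA2 thus differed at equal depth and not without thinning.

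**Figure D3:**
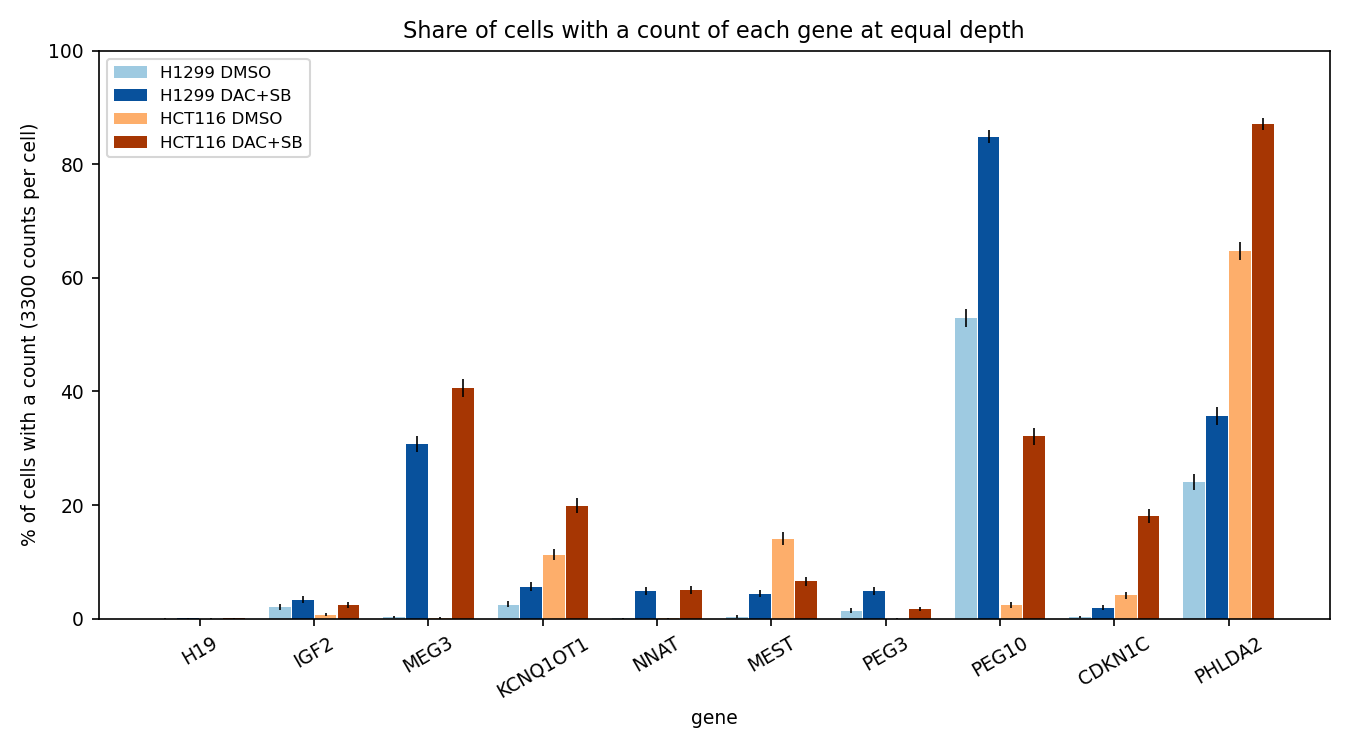
Share of cells with a count of each imprinted gene after thinning to 3300 counts per cell, in percent, with exact Clopper-Pearson 95% intervals over cells. Bars are the 4 libraries, pale for DMSO and dark for DAC+SB. MEG3 is near 0 with DMSO and at 30.7% and 40.6% with DAC+SB, and MEST is in fewer cells with DAC+SB in HCT116.

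In the treated cells of both lines the other 7 genes were in smaller shares than these 3. CDKN1C went from 0.252% to 1.93% of thinned H1299 cells and from 4.07% to 18.0% of HCT116 cells. KCNQ1OT1 went from 2.46% to 5.58% and from 11.3% to 19.9%. Without thinning its HCT116 shares were 37.1% and 37.4%, so they differed at equal depth only. NNAT went from 0.0279% to 4.86% and from 0.0273% to 5.02%. MEST went from 0.307% to 4.40% in H1299 and from 14.1% to 6.57% in HCT116. PEG3 was in 1.40% and 4.83% of H1299 cells and in 0 and 1.66% of HCT116 cells. In control HCT116, 3 of 3658 cells would be 0.0820%, and the exact interval for 0 cells with a count reaches 0.101%. Neither value limits the cells that express the gene. IGF2 was in 2.04% and 3.35% of H1299 cells and 0.601% and 2.37% of HCT116 cells.

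No cell type that lacks these genes was profiled, so free RNA was judged from genes of blood, liver and pancreas, of which 13 of the 14 listed were in the table. The highest thinned share among them was 0.224% (APOA1), 1.48% (APOA1), 0.383% (APOA1) and 2.01% (HBA2) in the 4 libraries, and the median over the 13 was 0, 0.0537%, 0 and 0.102%. The control shares of MEG3 and NNAT in both lines were at or below the highest of these shares. These few counts are not read as clear expression, and the list sets no background level for them. That highest share rests on APOA1 alone in the controls, where the medians were 0, and whether free RNA had a part in the MEG3 and NNAT counts there was not tested. In control H1299 the 29 MEG3 counts lay in 18 cells without thinning, with up to 5 in a cell. In control H1299 the shares of CDKN1C (0.252%) and MEST (0.307%) were close above that of APOA1. The share of PEG3 in treated HCT116 (1.66%) lay below those of 2 of the 13 genes. APOA1 and HBA2 were themselves higher with DAC+SB. APOA1 went from 30 to 381 counts in H1299 and HBA2 from 7 to 266 in HCT116. The highest share is thus no measure of free RNA. Whether free RNA had a part in the PEG3 counts of treated HCT116 was not tested.

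Positive cells differed in how many counts they held. These values are without thinning, so they are not set against each other between the lines. Treated HCT116 cells had a median of 8449 counts, against 15784.5 in treated H1299 and 16257.5 in control HCT116. Values of control and treated HCT116 are thus not at equal depth either. In H1299, PEG10 went from a mean of 5.25 to 22.2 counts per positive cell, with a highest value of 73 in a DMSO cell and 245 in a DAC+SB cell. In HCT116 it went from 1.34 to 3.02. MEG3 in treated cells had a mean of 3.70 counts per positive cell in H1299 and 3.20 in HCT116, with highest values of 34 and 29. The 10% of cells with most MEG3 held 42.8% of its counts in treated H1299 and 42.5% in treated HCT116. The corresponding share for PEG10 in H1299 was 29.6% with DMSO and 35.8% with DAC+SB. NNAT was sparser, with 71.7% and 69.9% of positive treated cells, H1299 first, holding a single count.

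**Figure D4:**
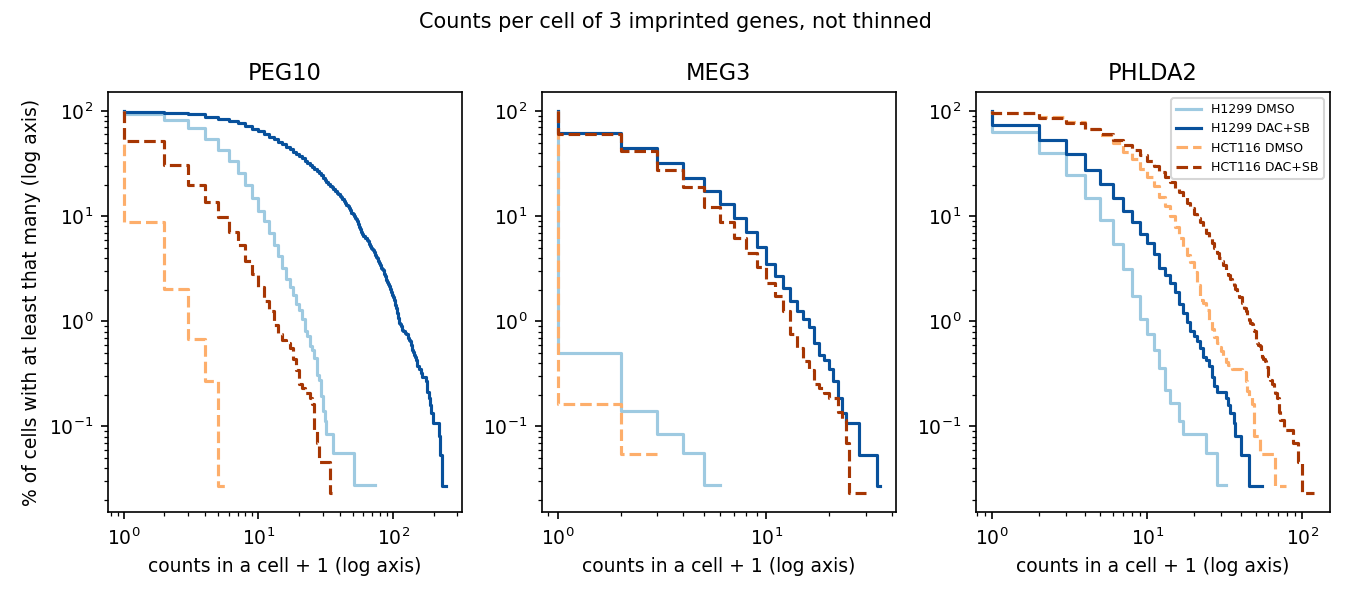
Counts per cell of PEG10, MEG3 and PHLDA2 without thinning. The x axis is the count in a cell plus 1 and the y axis the percentage of cells with at least that many counts, both on log axes, with solid lines for H1299 and dashed lines for HCT116. PEG10 reaches 245 counts in an H1299 DAC+SB cell. Treated HCT116 cells were shallower, with a median of 8449 counts against 15784.5 in treated H1299 and 16257.5 in control HCT116. Curves of the lines, and of control and treated HCT116, are thus not at equal depth.

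Several of the genes were often found in the same treated cell. At 3300 counts per cell the mean number of the 10 genes detected was 0.836, 1.76, 0.972 and 2.13. Cells with none of the 10 made up 32.9% and 5.45% in H1299 and 24.9% and 3.44% in HCT116, and cells with at least 3 made up 0.699%, 19.8%, 2.13% and 33.2%. Pairs of genes were set beside the product of their shares wherever that product gave at least 5 cells. The observed number over the product had a median of 1.02 over 31 pairs in treated H1299 and 1.03 over 32 pairs in treated HCT116. MEG3 and PEG10, for example, were together in 559 treated HCT116 cells, against 512 from their shares. Of these pairs, 1 in H1299 and 3 in HCT116 had a counting interval above 1, and none had an interval below 1. Cells of a library are not replicates, and such weak departures in sparse counts are given as a description.

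The TE share of a cell was set beside the presence of each gene, since the series follows TE transcripts. In treated H1299 the median TE share was 2.76% in thinned cells with a MEG3 count and 2.45% in those without, with interquartile ranges of 1.88 to 4.15 and 1.61 to 3.79. In treated HCT116 these medians were 5.03% and 4.73%. Cells with NNAT had a median of 2.64% in H1299, against 2.55% without, and of 5.85% in HCT116, against 4.82%. Cells with PEG3 had 2.48% against 2.55% in H1299 and 5.91% against 4.85% in HCT116. PEG10, itself of retrotransposon origin, gave 2.61% against 2.35% in H1299 and 4.88% against 4.85% in HCT116. CDKN1C gave 3.11% against 2.55% in treated H1299 and 4.86% against 4.85% in treated HCT116. Besides PEG3 in treated H1299, the medians were lower in cells with a count for 4 of the genes. These were MEST in treated HCT116, with 4.32% against 4.91%, KCNQ1OT1 in treated HCT116, with 4.79% against 4.88%, IGF2 in treated H1299, with 2.39% against 2.55%, and PHLDA2 in treated H1299, with 2.48% against 2.61%. In the other treated line each of these 4 had a higher median in cells with a count. In H1299, MEST had 2.73% against 2.55% and KCNQ1OT1 2.58% against 2.55%. In HCT116, IGF2 had 5.73% against 4.85% and PHLDA2 4.91% against 4.67%. The interquartile ranges with and without a count overlapped for each gene named here. With cells split by TE share into 4 equal classes, MEG3 was in 24.6% (21.9 to 27.5), 30.5%, 32.7% and 35.2% (32.1 to 38.4) of treated H1299 cells and in 35.8%, 42.4%, 42.4% and 41.9% of treated HCT116 cells, lowest TE share first. Over the same classes of treated H1299 cells PHLDA2 was in 37.8%, 36.4%, 36.1% and 32.3% and IGF2 in 3.76%, 3.65%, 3.76% and 2.25%, both lowest where the TE share was highest. In treated HCT116 PHLDA2 was in 86.5%, 85.7%, 87.8% and 88.3% and IGF2 in 1.94%, 1.94%, 3.26% and 2.34%. In the lowest and highest classes of treated HCT116, NNAT was in 3.26% and 7.43% and MEST in 8.56% and 5.50%. In treated H1299 these were 3.22% and 4.72% for NNAT and 4.51% and 4.72% for MEST. Intervals are over cells of 1 library, which are not replicates.

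The remaining imprinted genes were described from a list of 46, of which 41 had a name of their own in the table. In H1299, 7 of the 46 met the 4-fold rule as higher (MEG8, MEG9, DLK1, TFPI2, CPA4, DIRAS3 and NLRP2), and in HCT116, 8 did (MEG8, DIO3, TFPI2, CPA4, GNAS-AS1, FAM50B, NAP1L5 and KCNK9), beside 11% and 9.63% of all genes with at least 100 counts. With at least 100 counts were 25 and 24 of them, none of which was 4-fold lower. Their median log2 ratio was 0.51 in H1299 and 0.64 in HCT116. As with the 10 genes, those near 0 with DMSO could enter only as higher.

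The neighbours of MEG3 in its chromosome 14 domain were among them. MEG8, a non-coding RNA downstream of MEG3, had 1, 692, 4 and 941 counts in control H1299, treated H1299, control HCT116 and treated HCT116, or log2 ratios of 9.48 (7.00 to 14.79) and 8.56 (7.20 to 10.44). MEG9 had 2, 137, 2 and 84 counts. DLK1, a paternally expressed NOTCH-related protein gene, had 15, 122, 0 and 81 counts, and DIO3, a thyroid hormone deiodinase gene, had 0, 9, 23 and 778. In H1299, maternally expressed MEG3 and paternally expressed DLK1 thus both met the 4-fold rule as higher with DAC+SB, by counts that differ widely. MEG3 and MEG8 met it in both lines, MEG9 in H1299 only and DIO3 in HCT116 only. DLK1 and MEG9 in HCT116 and DIO3 in H1299 were higher by counts below the minimum of 100. RTL1, also of this domain and named after its values were seen, had 0, 7, 0 and 42 counts, below that minimum in both lines. Joined names with the neighbouring transcript RP11-909M7.3 were also higher, from 1 to 338 and from 0 to 175 counts with MEG3 and from 0 to 130 and from 0 to 169 with MEG8, H1299 first.

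Elsewhere the lines differed for some genes and shared a direction for others. TFPI2, a protease inhibitor gene near PEG10, had 2123, 10594, 1 and 428 counts, log2 ratios of 2.37 and 9.43. FAM50B had 1825, 1969, 12 and 572 counts, and GNAS-AS1, the antisense RNA of the GNAS domain, 466, 506, 1 and 151. Both were thus present in control H1299, where their log2 ratios were 0.16 and 0.17, and were near 0 in control HCT116, where they were 6.26 and 7.92. CPA4, a carboxypeptidase gene near MEST, had 13, 576, 96 and 1106 counts. GNAS, which encodes a G protein subunit, was at -0.28 and -1.10, and UBE3A, a ubiquitin ligase gene of the 15q domain, at -0.58 and -1.12. The 15q gene pair SNRPN and SNURF was counted mostly as the joined name SNRPN_SNURF, with 0, 67, 0 and 281 counts.

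**Figure D5:**
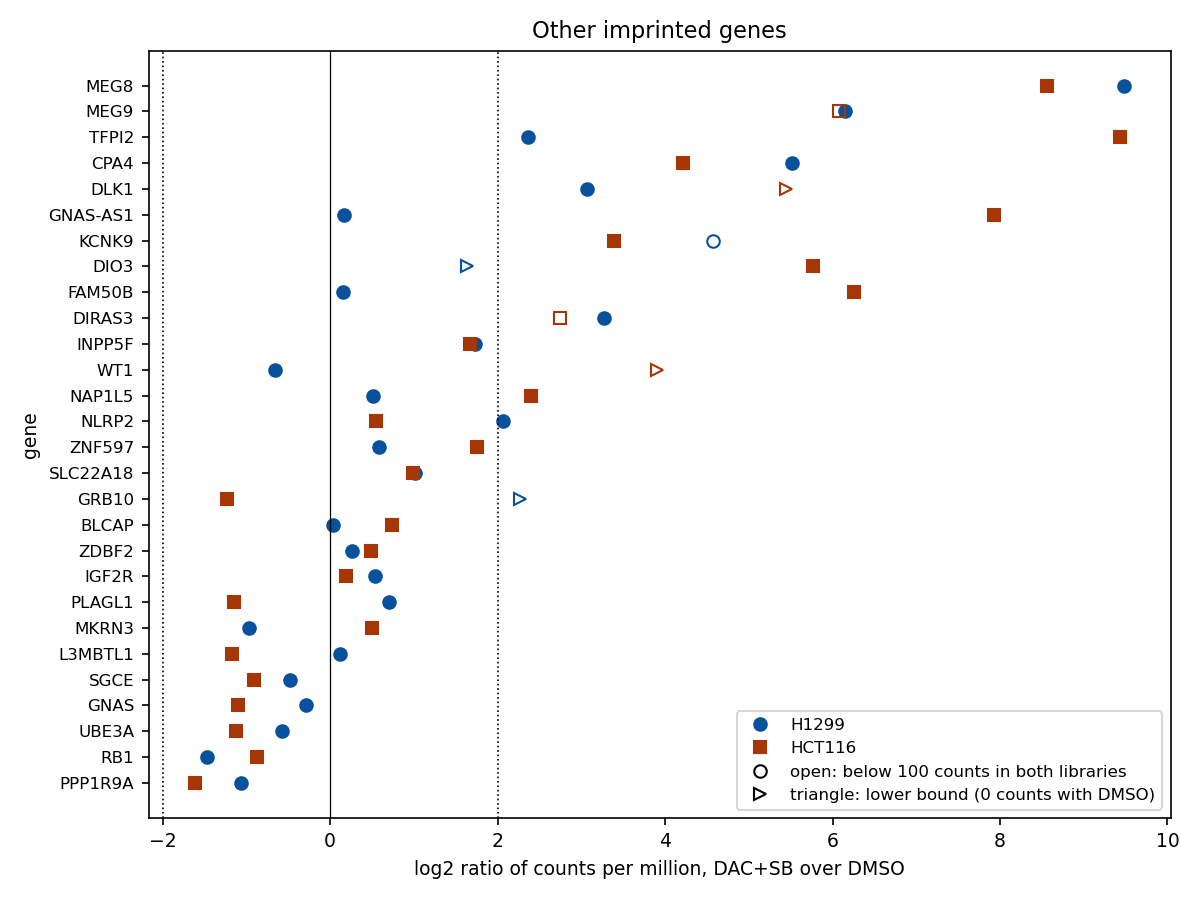
Log2 ratio of 28 other imprinted genes with at least 100 counts in some library, DAC+SB over DMSO, for H1299 (circles) and HCT116 (squares). Open symbols had under 100 counts in both libraries of the line, triangles are lower bounds and dotted lines mark 4-fold. MEG8, MEG9, DLK1, TFPI2, CPA4, DIRAS3 and KCNK9 lie to the right of 2 in both lines, some of them with an open symbol. No gene lies to the left of -2.

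Genes that set or keep imprints were listed as well. ZFP57, a zinc finger protein that binds methylated imprinting control regions and recruits TRIM28, had 0 counts in each control, 217 in treated H1299 and 157 in treated HCT116. Its levels were higher by at least 74.8-fold in H1299 and by at least 84.2-fold in HCT116. CTCFL, the germline relative of the insulator protein CTCF, had 1000, 2076, 8 and 491 counts, log2 ratios of 1.10 and 6.63. DNMT1, which copies methylation onto new DNA, was at -1.08 and -0.62, TRIM28 at -0.59 and -0.80, and UHRF1, which guides DNMT1 to newly copied DNA, at -1.28 and -2.13. Of the 10 genes listed, 8 had at least 100 counts in each line. In H1299, 1 of the 8 was at least 4-fold higher, beside 11% of all genes. In HCT116, 2 of the 8 were higher, beside 9.63%, and 1 was lower, beside 3.69%.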

How the data were processed

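Whole-number counts per gene feature or TE feature and cell were deposited by the authors for 4 libraries. Per the submitters' processing notes, CASAVA and STAR and the build GRCh38 (hg38) were used. Versions, the counting tool, the annotation, the cell filter and the use of molecular identifiers are not stated in any source used here. Cells were assigned to libraries by the end of the cell name, which matches 1 sample title each. No doublet caller was run.

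A gene's counts were summed over features whose name before the first bar equals its symbol, and joined names were kept apart. Levels are counts per 1000000 gene plus TE counts. A gene at 0 was set to 3 counts for a bound. The 4-fold rule asks for at least 100 counts in the higher library. Ratios, intervals and calls were tested on simulated data. Thinned shares were drawn at 3300 counts per cell, set near the 10th percentile of the shallowest library. Positions come from GENCODE 29, matched by symbol, and promoters from RefSeq. The 10 genes, the lists and the rules were chosen with earlier results of these data known. All 10 genes are named. Of the 7 HCT116 markers 1 is not reported here by name, nor is their sum. From the lists of other imprinted genes, neighbours and maintenance genes, those past 4-fold and up to 3 with most counts are named. Python 3.11.15, numpy 2.4.6, scipy 1.17.1, pandas 2.3.3 and pyarrow 21.0.0 were used. Alternatives changed the denominator, cells, features, joined names, fold and count minimum.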

Additional observations from a re-analysis of the deposited data

Results flagged for a closer look

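MEST had a log2 ratio of 3.34 in H1299 and -1.31 in HCT116, opposite directions in the lines. With 1 library per group this difference was not tested between replicates.

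Signal also appeared under joined names that enter no gene total, above the level in the DMSO libraries. The name that joins IGF2 with 1 clone-named transcript was at 2.01 on the log2 scale in HCT116. MEG3_RP11-909M7.3 was at 8.45 in H1299, from 1 DMSO count, and at least 6.55 in HCT116. PEG3_ZIM2 was at 2.04 in H1299 and at least 5.87 in HCT116.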

How the results depend on the processing

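Each group was 1 library, so nothing below measures variation between cultures or captures. Over 8 alternatives for the log2 ratios of the 10 genes, 152 values were computed, none changed sign, 126 stayed within the counting interval of the reported ratio and 26 moved outside it or, for bounds, to another value. The number of the 10 genes at least 4-fold higher stayed at 5 in H1299 under these alternatives, and in HCT116 it was 5, or 6 (IGF2 added) with joined names added and with the mean over cells. Between the lines, 7 genes (IGF2 added) were 4-fold apart among controls with joined names added, in place of 6, and 3 (KCNQ1OT1 lost) among treated libraries with numbered features listed in both only, in place of 4. With a 2-fold rule, 7 of the 10 genes were higher in H1299, beside 2673 of 14610 genes, and 7 in HCT116, beside 2192 of 13539. In HCT116, 1 of the 10 (MEST) was then lower, in place of 0, beside 20% of genes. With a minimum of 20 counts, 11 other imprinted genes were higher in H1299 in place of 7, and 16 in HCT116 in place of 8, beside 19.9% of 20097 and 18.6% of 18673 genes with that many counts. Leaving out cells with shared barcodes was chosen after seeing the data. No paired analysis was possible because each comparison set 1 library against 1 other and came from no test. Low DMSO counts limit the precision of the MEG3, NNAT and PEG3 ratios, and H19 could not be compared at this depth.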
